A study of Mus musculus with 7 samples.

Results

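Follicular cells taken directly from the mouse thyroid were compared, pathway by pathway, with the same cell type grown as thyroid follicular cell organoids (TFCOs). A cell entered the comparison if it had at least 1000 unique molecular identifiers (UMIs, each standing for 1 captured transcript molecule). All TFCO cells of that depth were taken, whereas tissue cells also had to hold at least 150 UMIs of thyroglobulin (Tg) per 10000 UMIs and a mean natural-log value under 0.5 for each of 3 marker lists (endothelial, immune and mural). The rule gave 46 and 44 cells in the 2 tissue samples and 307, 360, 242, 235 and 313 cells in the 5 TFCO samples, together 1547 of the 2590 deposited cells. Tissue came from wild-type C57BL/6 mice, and TFCOs were grown from such thyroids. The labels divide the TFCOs by passage into 3 late and 2 early samples. The culture medium held B27, N-acetylcysteine, nicotinamide, R-spondin 3 (which strengthens Wnt signalling), A83-01 (an inhibitor of TGF-beta type I receptors), forskolin (which raises cAMP), EGF and FGF10, and no tissue sample was exposed to it. Tissue was freed with collagenase and TrypLE and TFCOs with a matrix-dissolving solution and TrypLE, so culture and dissociation cannot be told apart as sources of a difference. Live cells were sorted into multiwell plates and sequenced by SORT-seq. The series text gives 2 biological replicates per kind of sample although there are 3 late samples, and no label says which samples share an animal or line, so the 5 TFCO samples may stand for fewer lines and the p values below measure only the spread between these samples, which may be technical.

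Thyroid follicular cells surround a lumen filled with thyroglobulin, a very large secreted protein. Thyroglobulin folds in the endoplasmic reticulum (ER), is iodinated at the apical membrane, and is later taken back up and cut in lysosomes to free the hormone. Thyrotropin (TSH) drives these steps through its receptor and cAMP, while growth factors such as EGF drive division.

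The selection fixed some values, which are given without a test. Tg was 1518 and 1094 in tissue, 133, 76.6 and 154 in the late samples and 68.5 and 132 in the early ones (UMIs per 10000, mean over cells; all levels below have this unit and this sample order). The tissue cells just inside the limit had 153, 155 and 169 UMIs of Tg per 10000 and those just outside had 146, 143 and 138. Of 170 tissue cells that passed the depth and marker limits, 90 passed the Tg limit, and 24 cells rich in Tg were taken out by the marker limits. Of the TFCO cells, between 7.66% and 39.3% per sample would have passed the Tg limit. The label of both sets held against 12 follicular markers that the rule did not use, which summed to 48.2 and 43.0 in tissue cells and to 33.3 to 51.1 in TFCOs, against 2.97 and 3.995 in the other tissue cells, meaning those of the same depth that failed a marker limit. Markers of several other cell types summed higher in the tissue set than in TFCOs. The 4 endothelial markers outside the rule summed to 3.64 and 3.38 against 0.984 to 1.83, 6 C cell markers to 6.22 and 3.14 against 0.159 to 0.390, 5 erythroid markers to 5.51 and 1.81 against at most 0.0299, and 7 stromal markers to 3.18 and 2.02 against 0.233 to 0.707. Skeletal muscle and airway markers did not follow this, at 0.0694 and 0 against 0.0625 to 0.198 and at 0.106 and 0.608 against 0.00433 to 0.315. Depth differed too, with a median of 1973 and 1616 UMIs per tissue cell and of 5011 to 12381 per TFCO cell. The tissue set rests on 112624 and 121076 UMIs in all. Among the TFCO samples, late 2 and early 1 had like levels of genes such as Dcpp3 and Gstm2 across the passage groups, and without this pair 920 genes passed the test.

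With limma, 867 of 4122 tested genes differed between TFCOs and tissue at an adjusted p under 0.05. Of all tested genes, 610 (14.8%) were higher and 257 (6.23%) lower in TFCOs, and these shares are the background for the counts per list below. In all 867 every TFCO sample lay on 1 side of both tissue samples. Such a separation was seen in 35.1% of all tested genes in the higher direction and in 12.9% in the lower direction. The median log2 difference of all tested genes was 0.16. Centring each sample on its median gene took this shift away and left 318 genes higher and 376 lower, so the split between higher and lower genes changes with scaling, and list medians are given relative to the median of all genes. A gene near 0 in one group could enter the test only by being high in the other, as for 424 of the 610 higher genes, which were under 0.5 in tissue, and 135 of the 257 lower genes, which were under 0.5 in TFCOs, so the counts per list describe the genes that passed this filter. Over 32 gene lists with 771 different genes, 67 of the tested members were higher and 41 lower. The strip plot of all lists and the map of list medians by sample show the spread of the members. Lists of ER folding, class II antigen presentation and mitochondrially encoded genes lay lowest, and those of retinoid handling and metallothioneins highest.

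**Figure D1:**
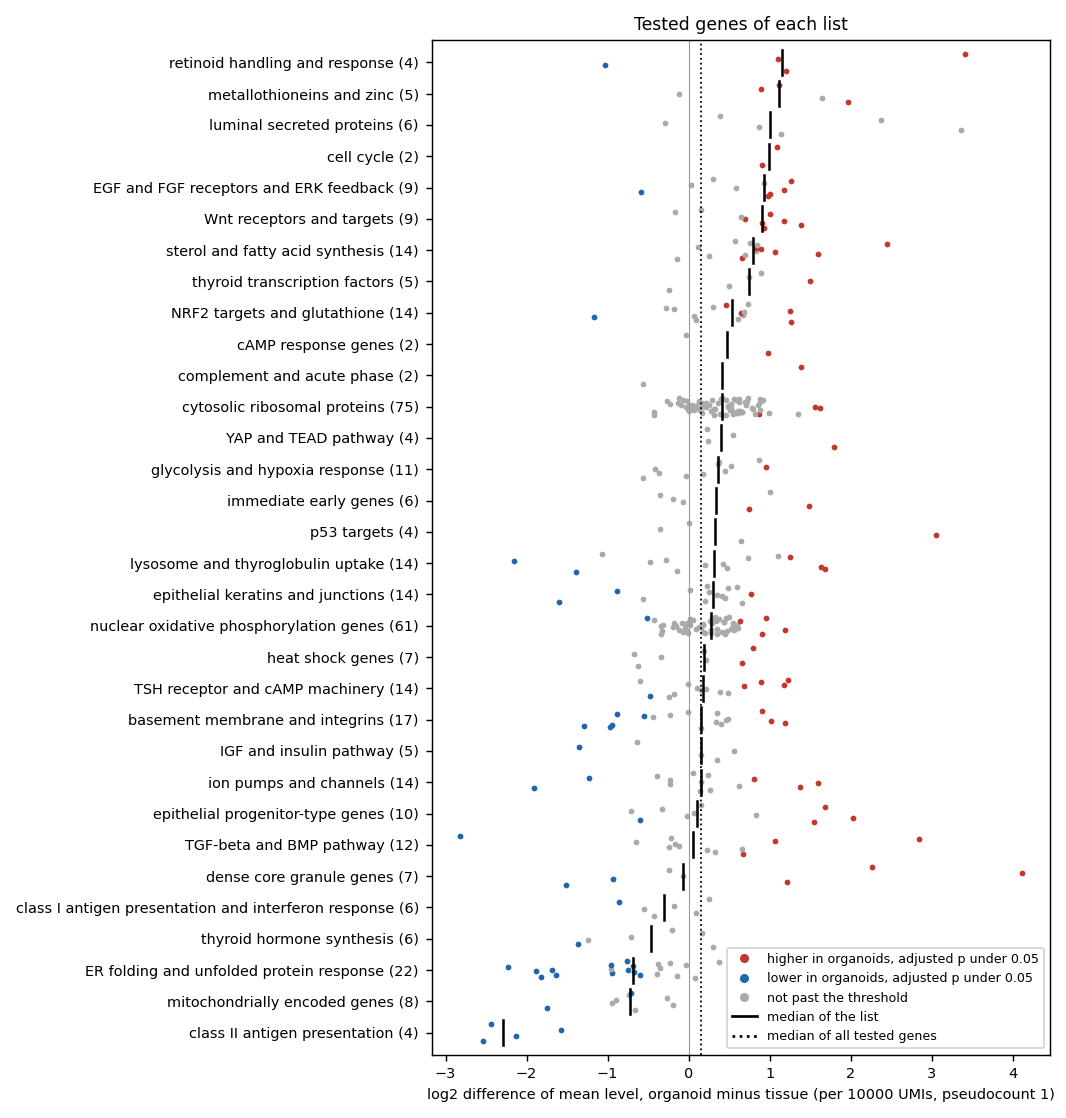
Each point is 1 tested gene of a list, placed by its log2 difference of mean level (TFCO minus tissue, UMIs per 10000, pseudocount 1) and coloured by its call, with a black bar at the list's median, a thin grey line at no difference and the number tested in brackets. All 4 class II genes and 12 of 22 ER folding genes are called lower, and the dotted line marks the median of all tested genes at 0.16.

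**Figure D2:**
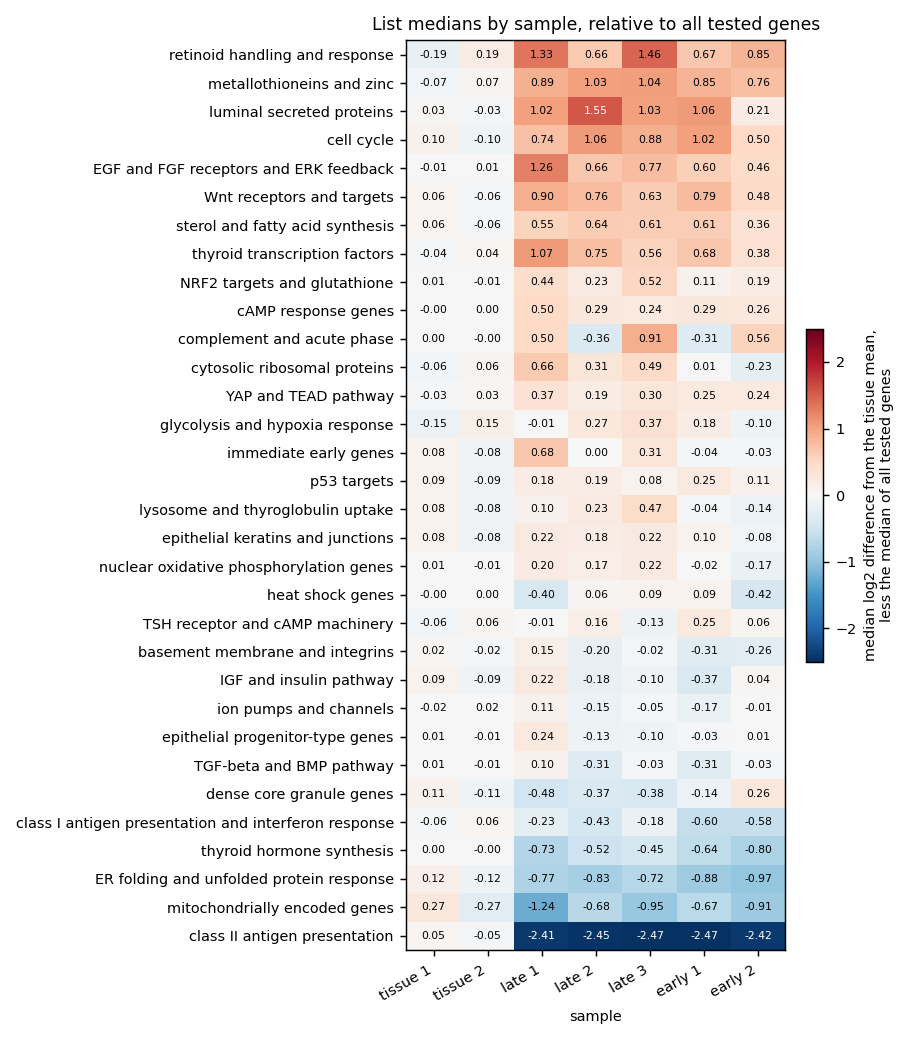
Rows are gene lists and columns the 7 samples, and each cell gives the median over the list's tested genes of the log2 difference from the tissue mean, less the same median over all 4122 tested genes (in log2 units, red higher, blue lower). The ER folding row lies between -0.97 and -0.72 in all 5 TFCO samples, while rows such as complement and acute phase split the TFCOs.

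Genes of hormone synthesis were measured first. Of the 15 genes listed 6 were expressed enough to test, and 1 was lower and none higher, with a list median of -0.62. The gene that fell was Dio1, the type 1 deiodinase that converts thyroxine to its active form, at 1.72 and 2.15 in tissue, 0.0963, 0.268 and 0.154 in the late samples and 0.147 and 0.0442 in the early ones (log2 difference -1.36, SE 0.16, limma adjusted p = 0.000218). The tissue mean was 13.6-fold the TFCO mean, and no TFCO sample reached either tissue sample. Iyd, which recovers iodide from iodotyrosines, was at 5.68 and 5.19 in tissue, 3.25, 1.1 and 2.47 in the late samples and 0.917 and 1.49 in the early ones, below both tissue samples in all 5 TFCO samples but not past the threshold (log2 difference -1.24, SE 0.42, limma adjusted p = 0.0537). The iodide transporter Slc5a5 did not reach the filter, with 8 UMIs in the tissue set.

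Of the 5 thyroid transcription factors, all tested, 1 was higher and the list median was 0.59. Hhex, a homeobox factor of thyroid development, rose 8.12-fold and was at 0.304 and 0.394 in tissue, 3.79, 2.57 and 2.68 in the late samples and 2.6 and 2.52 in the early ones (limma adjusted p = 0.00267). Pax8 and Nkx2-1, which activate thyroid genes such as Tg, lay above tissue in all 5 TFCO samples and did not pass (log2 differences 0.89 and 0.75, adjusted p = 0.0801 and 0.155). Foxe1 and Glis3 overlapped between the groups.

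The list with the most lower genes was that of protein folding. Of 26 genes for ER chaperones and the unfolded protein response 22 were tested, and 12 were lower and none higher against a background of 6.23% of all tested genes. In 15 every TFCO sample lay below both tissue samples, as in 12.9% of all tested genes. Pdia3, a disulfide isomerase that works on glycoproteins, fell most. It was at 12.8 and 9.81 in tissue, 1.24, 2.13 and 1.98 in the late samples and 1.45 and 1.37 in the early ones (log2 difference -2.23, SE 0.31, limma adjusted p = 0.000772). Hsp90b1, the HSP90 chaperone of the ER, was at 29.1 and 22.3 in tissue, 5.39, 7.95 and 6.48 in the late samples and 7.71 and 3.98 in the early ones (log2 difference -1.89, SE 0.45, limma adjusted p = 0.0127). Calreticulin (Calr), a lectin chaperone that holds calcium, was at 24.4 and 21.4 in tissue, 4.18, 6.7 and 9.18 in the late samples and 5.2 and 4.47 in the early ones (log2 difference -1.83, SE 0.46, limma adjusted p = 0.0158). In each of these genes the lowest tissue sample was more than 2-fold above the highest TFCO sample. The master chaperone BiP (Hspa5), named here after its values were seen, was at 25.6 and 25.7 in tissue, 5.76, 8.52 and 7.96 in the late samples and 8.71 and 6.08 in the early ones (log2 difference -1.68, SE 0.42, limma adjusted p = 0.0146), a mean of 25.7 ± 0.0689 (SD, n = 2) against 7.41 ± 1.39 (SD, n = 5). The other 8 genes that fell were Creld2, Sdf2l1, Dnajc3, Xbp1, Hyou1, Pdia4, Herpud1 and Dnajb11, with log2 differences from -1.64 to -0.60. Folding genes did not all move. Pdia6, another disulfide isomerase, was at 8.78 and 7.79 in tissue, 5.73, 9.16 and 9.69 in the late samples and 8.54 and 7.79 in the early ones, Canx, the membrane-bound partner of calreticulin, had a log2 difference of -0.15, and Atf4, a transcription factor of the stress response, was above tissue in all TFCO samples (log2 difference 0.64, SE 0.24, limma adjusted p = 0.077).

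Because tissue cells were chosen on high Tg, the folding genes were also compared with the TFCO cells held to the same Tg and marker limits. The TFCO means of Tg were then 208 to 271, still below tissue, and Hspa5 was 6.75 to 12.7 in the TFCO samples against the same 25.6 and 25.7 in tissue. In that setting 9 list genes were lower and 1 higher, with a list median of -0.71. With tissue cells chosen by 6 epithelial genes in place of Tg, 8 genes were lower at a median of -0.70, and with stricter marker limits of 0.25 6 were, at -0.87. Each of the 12 genes that fell was lower in the other tissue cells than in the tissue follicular cells, on whose level they had been called. This was common, since of all 257 genes lower in TFCOs 32 were at or above that level in the other tissue cells. Hspa5 UMIs were found in 91.1% of tissue follicular cells, and the richest of these cells held 7.08% of them.

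Many folding genes share a promoter element, which is shown here because 12 members of the list fell. The ER stress element consists of CCAAT, bound by NF-Y, and CCACG, bound by the stress factor ATF6, with 9 bases of any kind between them, and it was searched on both strands in the 250 bases before each start. It was chosen after the calls were seen. RefSeq promoters (GRCm38.p6) were matched for 23 of the 26 genes, and 7 held the element, against 37 of all 32851 promoters (0.113%). The count for the list is of genes and that for the background of promoter entries. Of the 19 matched genes that were tested 7 held it. These were 5 of the 11 that fell (Hspa5, Hsp90b1, Calr, Creld2 and Dnajc3), and Pdia6 and Canx, which did not pass. The Hspa5 promoter lies at chr2:34771840-34772089 on the plus strand and reads 5′ to 3′ as follows, with the element in capitals. The elements of the 7 genes follow with 15 bases on each side, on the strand of the gene. The Hsp90b1 pair lies at chr10:86705623-86705671 and chr10:86705518-86705566 and the Calr element at chr8:84847060-84847108, all on the minus strand. The Creld2 element lies at chr15:88819505-88819553 and the Dnajc3 element at chr14:118937812-118937860 on the plus strand. Those of Pdia6 and Canx lie at chr12:17266476-17266524 (plus) and chr11:50325785-50325833 (minus).
Hspa5 promoter: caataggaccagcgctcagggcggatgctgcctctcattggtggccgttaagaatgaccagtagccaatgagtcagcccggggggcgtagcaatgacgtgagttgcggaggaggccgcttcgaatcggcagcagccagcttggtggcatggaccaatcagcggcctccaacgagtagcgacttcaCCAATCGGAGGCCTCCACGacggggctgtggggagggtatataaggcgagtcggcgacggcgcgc
Hspa5 element: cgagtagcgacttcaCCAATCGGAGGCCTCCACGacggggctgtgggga
Hsp90b1 element: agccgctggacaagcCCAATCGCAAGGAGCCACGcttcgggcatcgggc
Hsp90b1 second element: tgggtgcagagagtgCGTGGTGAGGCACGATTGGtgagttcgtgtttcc
Calr element: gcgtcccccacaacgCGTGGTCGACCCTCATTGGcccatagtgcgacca
Creld2 element: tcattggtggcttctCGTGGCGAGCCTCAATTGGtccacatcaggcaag
Dnajc3 element: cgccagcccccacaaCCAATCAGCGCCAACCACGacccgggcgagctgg
Pdia6 element: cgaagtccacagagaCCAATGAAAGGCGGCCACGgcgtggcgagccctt
Canx element: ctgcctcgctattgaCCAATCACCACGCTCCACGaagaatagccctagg
In Calr, Creld2 and the second Hsp90b1 site the letters run on the other strand, so the capitals there are the reverse complement. A match describes letters only.

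**Figure D3:**
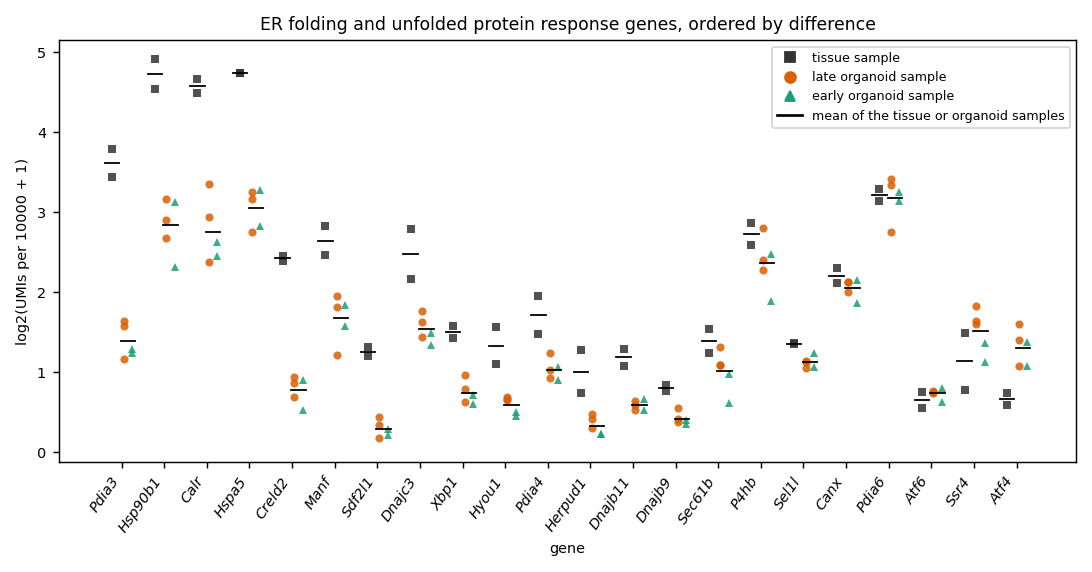
The 22 tested ER folding genes are ordered by their difference, with the level of each sample as log2(UMIs per 10000 + 1) and a bar at the mean of the 2 tissue samples (squares) or the 5 TFCO samples (circles late, triangles early). Tissue lies above all TFCO samples from Pdia3 to Dnajb9 and for Sel1l, and the groups overlap for Pdia6, P4hb, Canx, Atf6, Ssr4 and Sec61b.

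Genes of the lysosome, where thyroglobulin is cut, did not move together, and of 14 tested 3 were higher and 2 lower. Cathepsin B (Ctsb), one of the proteases that process thyroglobulin, was at 8.87 and 6.78 in tissue, 28.1, 25.9 and 39.2 in the late samples and 23.3 and 22.2 in the early ones (log2 difference 1.69, SE 0.46, limma adjusted p = 0.0225). Cathepsin L (Ctsl) rose 3.63-fold (log2 difference 1.64, SE 0.46, limma adjusted p = 0.026), and so did the uptake receptor megalin (Lrp2), from 0.751 ± 0.544 to 3.08 ± 0.446 (log2 difference 1.25, SE 0.27, limma adjusted p = 0.00927). All 5 TFCO samples lay above both tissue samples for the 3 genes. The vesicle membrane protein Cd63 went the other way and was at 8.35 and 6.93 in tissue, 2.17, 2.32 and 3.31 in the late samples and 1.8 and 2 in the early ones (log2 difference -1.39, SE 0.32, limma adjusted p = 0.0116). Part of the exons of Ctsb and Ctsl (12.8 and 26.8%) overlaps a gene on the other strand, and strand use in the counting is not given in the sources used here.

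Of 7 tested genes of dense core granules, 3 were higher and 2 lower. Ptprn, a membrane protein of such granules, was at 0 and 0.169 in tissue, 6.83, 32.3 and 20.5 in the late samples and 27.9 and 13.4 in the early ones (log2 difference 4.12, SE 0.70, limma adjusted p = 0.00267). Its tissue level rests on a single molecule (1 UMI in tissue, ratio of summed levels 518, exact 95% counting interval 92.9 to 20442). Scg5, a chaperone of prohormone convertase, was at 1.96 and 1.42 in tissue, 14, 8.63 and 22 in the late samples and 6.98 and 12.3 in the early ones (log2 difference 2.26, SE 0.55, limma adjusted p = 0.0138), and Cpd, a carboxypeptidase of the Golgi, rose 9.59-fold (log2 difference 1.21, SE 0.19, limma adjusted p = 0.00223). Chromogranin A (Chga) and the amidating enzyme Pam were lower (log2 differences -1.51 (adjusted p = 3.78e-05) and -0.93 (adjusted p = 0.0117)). Chga UMIs occurred in 26.7% of the tissue follicular cells and in 27.0% of the other tissue cells, at median depths of 1898 and 3758 UMIs, and in 4.19% of TFCO cells, and the C cell marker total given above moved the same way; their part in the result was not tested.

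None of 6 tested genes for secreted luminal proteins passed, although 4 lay above tissue in every TFCO sample, where 35.1% of all tested genes did. The list median was 0.85. Napsa, an aspartic protease, was at 7.24 and 6.65 in tissue, 17.7, 14.1 and 19.5 in the late samples and 11.1 and 8.2 in the early ones (log2 difference 0.87, SE 0.51, limma adjusted p = 0.24). Dcpp3, a salivary-type secreted protein, was at 0 and 0 in tissue, 4.09, 39.2 and 4.62 in the late samples and 25.5 and 2.83 in the early ones (log2 difference 3.37, SE 1.14, limma adjusted p = 0.0524). Late 2 and early 1 were far above the other 3 TFCO samples, and the surfactant protein gene Sftpb showed the same split at 0 and 0.509 in tissue, 3.76, 14.6 and 2.5 in the late samples and 12.7 and 1.92 in the early ones. The call of Dcpp3 depended on many settings, with adjusted p from 5.61e-06 to 0.18, and it passed when any 1 sample other than late 3 was left out. Of the Dcpp3 transcript 45.8% of 50-base stretches also occur in other genes, so its level is uncertain. Gstm2, a glutathione transferase, showed the opposite split, with late 2 and early 1 lowest, at 0.156 and 0.173 in tissue, 2.45, 0.0765 and 1.66 in the late samples and 0.0331 and 1.18 in the early ones.

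Signalling pathways addressed by the medium were followed from receptors to targets. In the cAMP list, 4 of 14 tested genes were higher and 1 was lower. The TSH receptor (Tshr) was at 1.26 and 1.91 in tissue, 4.71, 6.66 and 4.22 in the late samples and 7.18 and 3.22 in the early ones (log2 difference 1.23, SE 0.40, limma adjusted p = 0.0466). It was not past the threshold without late 3 (1.28), and its difference was 1.05 without tissue 1. Nor did it pass in 10 of 22 alternative settings, among them Tg left out of totals, centring on the median gene and voom on summed UMIs. Of 4 tested regulatory subunits of protein kinase A, 2 rose, with Prkar1a at 1.06 and 1.58 in tissue, 4.6, 4.09 and 4.51 in the late samples and 4.25 and 3.66 in the early ones (log2 difference 1.18, SE 0.28, limma adjusted p = 0.0132) and Prkar2b 7.3-fold (log2 difference 0.90, SE 0.18, limma adjusted p = 0.00611). Prkar2a overlapped between the groups (log2 difference -0.01, SE 0.17, limma adjusted p = 0.976). Prkar1b, which is not in the list and was looked up after the other subunits, was lower in all 5 TFCO samples (log2 difference -0.67, SE 0.17, limma adjusted p = 0.0151). Prkar1a and Prkar2b lay above tissue in all 5 TFCO samples, as did the catalytic subunit Prkacb (log2 difference 0.68 (adjusted p = 0.0296)). Adcy9, a cyclase that makes cAMP, was lower (log2 difference -0.47, SE 0.15, limma adjusted p = 0.0441), and not past the threshold without early 2 (-0.48), late 2 (-0.47) or late 3 (-0.43). Nor did Adcy9 pass in 13 of the 21 alternative settings that tested it. Only 2 of 15 cAMP response genes were expressed enough to test. Areg, an EGF receptor ligand, was 1 of them and was at 0 and 0.169 in tissue, 1.86, 1.03 and 1.05 in the late samples and 1.1 and 0.773 in the early ones (log2 difference 0.98, SE 0.24, limma adjusted p = 0.0142; 1 UMI in tissue, ratio of summed levels 27.4, exact 95% counting interval 4.92 to 1084). The other, the coactivator Ppargc1a, had a log2 difference of -0.04 (adjusted p = 0.893).

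Of 9 tested Wnt genes 6 were higher and none lower, where 14.8% of all tested genes were higher. The 6 became 3 when samples were centred on the median gene, 3 with voom on summed UMIs and 2 with cells of 2000 or more UMIs, and 3 of the 6 (Fzd6, Fzd1 and Ccnd1) were under 0.5 in tissue and so passed the filter through the TFCO level. Beta-catenin (Ctnnb1), the carrier of the signal, was at 0.993 and 1.24 in tissue, 5.7, 4.28 and 5.22 in the late samples and 4.07 and 3.66 in the early ones (log2 difference 1.39, SE 0.31, limma adjusted p = 0.0105). The receptor Fzd6 was at 0.126 and 0.0553 in tissue, 1.32, 1.31 and 1.99 in the late samples and 1.14 and 1.7 in the early ones (log2 difference 1.18, SE 0.22, limma adjusted p = 0.00406), and the coreceptor Lrp6 rose 3.59-fold (log2 difference 1.00, SE 0.23, limma adjusted p = 0.0105). The R-spondin receptor Lgr4, the receptor Fzd1 and the target cyclin D1 (Ccnd1) also passed (log2 differences 0.70, 0.90 and 0.93), and all 6 had TFCO samples wholly above tissue. Classical targets were mostly too low to test, with 1 UMI of Axin2 and none of Notum in the tissue set. Nkd1 and Tcf7l2 did not pass.

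In the TGF-beta and BMP list 3 of 12 tested genes were higher and 1 lower. The 3 higher genes were under 0.5 in tissue and so passed the filter through the TFCO level. Smad3, which carries the TGF-beta signal to the nucleus, was at 0.0371 and 0.0513 in tissue, 1.39, 1.11 and 1.37 in the late samples and 0.927 and 1.15 in the early ones (log2 difference 1.06, SE 0.18, limma adjusted p = 0.00267; 2 UMIs in tissue, ratio of summed levels 13, exact 95% counting interval 3.6 to 108). Tgfbi, a secreted matrix protein named for its induction by TGF-beta, was at 0.142 and 0.58 in tissue, 7.23, 15.1 and 8.57 in the late samples and 12.2 and 3.95 in the early ones (log2 difference 2.84, SE 0.56, limma adjusted p = 0.00608), with the lowest TFCO sample still above tissue. Bmpr1a, a BMP receptor, rose 3.44-fold (log2 difference 0.67, SE 0.17, limma adjusted p = 0.0177). It did not pass in 7 of the 21 alternative settings that tested it. Timp3, an inhibitor of matrix proteases, was at 9.49 and 10.2 in tissue, 0.818, 0.0945 and 1.04 in the late samples and 0.0985 and 0.881 in the early ones (log2 difference -2.83, SE 0.38, limma adjusted p = 0.000623). It was at 15.3 in the other tissue cells, above its level in tissue follicular cells, and 21.3% of its exons overlap Syn3 on the other strand. The target Pmepa1 was below tissue in all TFCO samples and did not pass (log2 difference -0.65, SE 0.22, limma adjusted p = 0.0516).

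Genes of EGF and FGF signalling were 4 higher and 1 lower of 9 tested. The 4 were under 0.5 in tissue and the 1 was under 0.5 in TFCOs. Each called gene thus passed the filter through the group where it was high. The receptor Fgfr2 overlapped between the groups, at 4.66 and 5.39 in tissue, 4.49, 4.37 and 4.55 in the late samples and 5.14 and 7.87 in the early ones, and its difference was smaller than the spread (log2 difference 0.04, SE 0.38, limma adjusted p = 0.957). Rises were seen in feedback genes of the ERK pathway and in Areg. Spred1, an ERK inhibitor, was at 0.184 and 0.0553 in tissue, 2.38, 1.55 and 1.8 in the late samples and 1.57 and 1.27 in the early ones (log2 difference 1.27, SE 0.23, limma adjusted p = 0.00406; 2 UMIs in tissue, ratio of summed levels 19, exact 95% counting interval 5.25 to 157). The transcription factor Etv5 had no UMI in the tissue set and was at 0 and 0 in tissue, 1.85, 0.961 and 1.84 in the late samples and 0.865 and 1.01 in the early ones (log2 difference 1.18, SE 0.27, limma adjusted p = 0.0105). Over the summed UMIs the exact 95% counting interval of the Etv5 ratio had its lower end at 8-fold. Against a floor of 3 counts over the 2 tissue samples the ratio was 9.85. Errfi1, an inhibitor of the EGF receptor, was at 0.184 and 0.311 in tissue, 2.9, 1.42 and 1.45 in the late samples and 1.25 and 0.884 in the early ones (log2 difference 1.00, SE 0.33, limma adjusted p = 0.0455). It was not past the threshold without late 3 (1.01), nor in 10 of the 21 alternative settings that tested it. Etv1, a relative of Etv5, was lower (log2 difference -0.59, SE 0.15, limma adjusted p = 0.0179).

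Smaller lists gave single genes. Of 5 tested IGF and insulin genes 1 was lower, Igfbp7, a binding protein of vessels, at 1.96 and 1.71 in tissue, 0.116, 0.0805 and 0.0677 in the late samples and 0.0896 and 0.199 in the early ones (log2 difference -1.35, SE 0.14, limma adjusted p = 0.00011), which was at 34.2 in the other tissue cells. The receptors Igf1r and Insr did not pass. Of 4 YAP and TEAD genes 1 was higher, the target Ccn2, at 1.55 and 2.42 in tissue, 10.5, 6.47 and 14.2 in the late samples and 5.86 and 11.5 in the early ones (log2 difference 1.79, SE 0.49, limma adjusted p = 0.022). Of 4 retinoid genes 3 were higher and 1 lower. Dhrs3, which turns retinaldehyde back to retinol, and Aldh1a1, which oxidises it, rose by 1.11 (adjusted p = 0.035) and 1.20 (adjusted p = 0.0283) on the log2 scale, and Aldh1a1 was not past the threshold without early 2 (1.20). Dhrs3 did not pass in 8 of 22 alternative settings and Aldh1a1 in 9 of the 21 that tested it. Aldh1a2, its relative, was lower (log2 difference -1.03, SE 0.28, limma adjusted p = 0.0199), but 1 tissue cell held 50.7% of its 75 tissue UMIs, its level followed the well barcode (correlation 0.47), and without tissue 2 it was not past the threshold (-0.37).

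**Figure D4:**
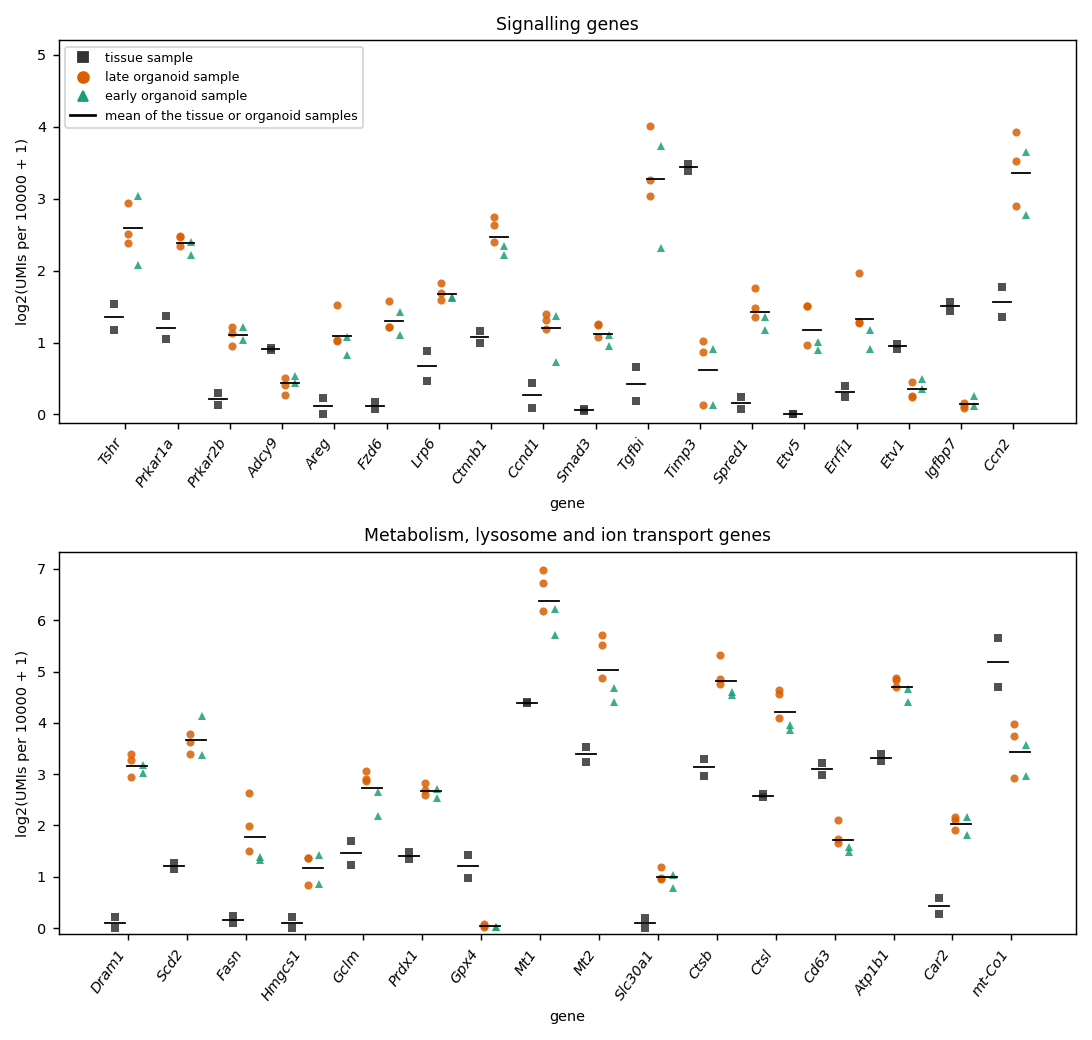
Levels of signalling genes (top) and of metabolism, lysosome and ion transport genes (bottom) in each of the 7 samples, as log2(UMIs per 10000 + 1), with bars at the tissue and TFCO means. TFCO samples lie wholly above tissue for genes such as Tshr, Ctnnb1, Scd2 and Mt1 and wholly below for Timp3, Gpx4 and Cd63.

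Of 29 cell cycle genes listed 2 reached the filter, both through the TFCO level since tissue was under 0.5, so that they could only be higher. Pcna, the clamp of DNA replication, was at 0.156 and 0.0592 in tissue, 0.93, 1.32 and 1.2 in the late samples and 1.31 and 0.7 in the early ones (log2 difference 0.91, SE 0.21, limma adjusted p = 0.0105), and Stmn1, which binds tubulin, was at 0.121 and 0 in tissue, 1.08, 1.69 and 1.25 in the late samples and 1.64 and 0.735 in the early ones (log2 difference 1.09, SE 0.24, limma adjusted p = 0.0105; 1 UMI in tissue, ratio of summed levels 35, exact 95% counting interval 6.28 to 1384). Pseudogene copies hold 19.1 and 18.9% of their 50-base stretches. Of 4 tested p53 targets 1 was higher, Dram1, a lysosomal membrane protein that promotes autophagy, at 0.158 and 0 in tissue, 8.67, 6.65 and 9.48 in the late samples and 7.09 and 8.09 in the early ones (log2 difference 3.06, SE 0.32, limma adjusted p = 0.00011; 2 UMIs in tissue, ratio of summed levels 92.1, exact 95% counting interval 25.5 to 761). The p53 targets Ccng1, Sesn1 and Eda2r did not pass.

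Of 14 tested genes of sterol and fatty acid synthesis 6 were higher and none lower, where 14.8% of all tested genes were higher. In 11 every TFCO sample lay above both tissue samples, against 35.1% of all tested genes. The number called higher ranged from 2 to 11 over 22 alternatives. It was 4 when samples were centred on the median gene and 3 of 13 with marker limits of 0.25. Of the 6 higher genes 4 were under 0.5 in tissue. Scd2, a desaturase of fatty acids, was at 1.41 and 1.23 in tissue, 9.45, 12.7 and 11.3 in the late samples and 16.4 and 9.35 in the early ones (log2 difference 2.44, SE 0.41, limma adjusted p = 0.00265). Fatty acid synthase (Fasn) was at 0.181 and 0.0667 in tissue, 5.21, 1.82 and 2.97 in the late samples and 1.52 and 1.63 in the early ones (log2 difference 1.60, SE 0.44, limma adjusted p = 0.022), with late 1 above the other TFCO samples. Hmgcs1, an early enzyme of cholesterol synthesis, was at 0 and 0.157 in tissue, 0.797, 1.57 and 1.57 in the late samples and 1.68 and 0.813 in the early ones (log2 difference 1.07, SE 0.26, limma adjusted p = 0.0146; 1 UMI in tissue, ratio of summed levels 34.8, exact 95% counting interval 6.24 to 1376). The sterol sensor Insig1, the sterol enzyme Msmo1 and the citrate-splitting enzyme Acly passed as well (log2 differences 0.90, 0.83 and 0.66), whereas Acaca, which commits carbon to fatty acids, did not (-0.14). Of 11 tested glycolysis and hypoxia genes 1 was higher, the glycolytic mutase Pgam1 (log2 difference 0.96, SE 0.24, limma adjusted p = 0.0152), and Gapdh and Pkm overlapped between the groups. Pseudogene copies hold 36.2% of the 50-base stretches of Pgam1.

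Of 14 tested genes of the NRF2 and glutathione list 4 were higher and 1 lower. The 4 became 1 when samples were centred on the median gene, with Tg left out of the totals or with marker limits of 0.25, and none with cells of 2000 or more UMIs. Prdx1, a peroxiredoxin, was at 1.54 and 1.79 in tissue, 5, 5.42 and 6.05 in the late samples and 5.52 and 4.79 in the early ones (log2 difference 1.25, SE 0.30, limma adjusted p = 0.0136), and Gclm, a subunit of the enzyme that starts glutathione synthesis, was at 2.25 and 1.34 in tissue, 6.46, 7.34 and 6.28 in the late samples and 5.29 and 3.53 in the early ones (log2 difference 1.27, SE 0.39, limma adjusted p = 0.0364), not past the threshold without late 3 (1.24). Me1, a malic enzyme, and the mitochondrial Sod2 also passed (log2 differences 0.65 and 0.46), but Me1 was not past the threshold when any of late 1, 2 or 3, early 1 or tissue 1 was left out (0.46 to 0.64). Nor did Me1 pass in 17 of 22 alternative settings. Gpx4, which clears lipid peroxides, was at 1.7 and 0.968 in tissue, 0.0285, 0.0186 and 0.0574 in the late samples and 0.0141 and 0.0104 in the early ones (log2 difference -1.17, SE 0.14, limma adjusted p = 0.000269). The 5 TFCO samples were near 0 for Gpx4, with 41 UMIs in all 1457 cells, and 34.7% of its 50-base stretches also occur in other genes, Gpx4-ps2 above all. Of 5 tested metallothionein and zinc genes 3 were higher. Mt1, which binds zinc and copper, was at 19.9 and 20.1 in tissue, 126, 71.9 and 104 in the late samples and 51.5 and 73.2 in the early ones (log2 difference 1.97, SE 0.53, limma adjusted p = 0.0205). The neighbouring Mt2 was above tissue in all 5 TFCO samples and did not pass (log2 difference 1.65, SE 0.57, limma adjusted p = 0.0559). A pair of zinc transporters rose, the exporter Slc30a1 (log2 difference 0.89, SE 0.18, limma adjusted p = 0.00726; 1 UMI in tissue, ratio of summed levels 22.7, exact 95% counting interval 4.08 to 899) and the importer Slc39a14 (log2 difference 1.11, SE 0.28, limma adjusted p = 0.0161).

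Ribosomal protein genes passed rarely, with 3 of 75 tested higher and none lower, below the background of 14.8%. The 3 were Rpl4, Rpl5 and Rpl15 (log2 differences 1.62 (adjusted p = 0.0167), 1.56 (adjusted p = 0.0216) and 0.87 (adjusted p = 0.0244)), which share 15.2 to 25.9% of their 50-base stretches with pseudogenes. In 24 of the 75 ribosomal genes every TFCO sample lay above both tissue samples, against 35.1% of all tested genes, and the list median was 0.25. The number called higher ranged from 0 to 15 over 22 alternatives, and Rpl15 did not pass in 7 of these. Nuclear genes of oxidative phosphorylation were below the background of 14.8% too, with 4 higher and 1 lower of 61. The ATP synthase genes Atp5pb and Atp5c1, the complex III gene Uqcrfs1 and the complex I gene Ndufs1 were higher (1.19 (adjusted p = 0.00748), 0.91 (adjusted p = 0.0468), 0.95 (adjusted p = 0.00927) and 0.64 (adjusted p = 0.0239)), and Uqcr11 was lower (-0.51 (adjusted p = 0.0428)). Atp5c1 was not past the threshold without late 1 (0.84) or late 3 (0.84), nor was Uqcr11 without early 1, early 2 or late 1 (-0.49 in each). Atp5c1 also did not pass in 14 of 22 alternative settings, and Uqcr11 in 15 of the 21 that tested it. Mitochondrially encoded genes lay lower, with 2 of 8 called and a list median of -0.88. None was called with cells of 2000 or more UMIs, with marker limits of 0.25, with a stricter Tg limit or with tissue cells chosen by 6 epithelial genes. The oxidase subunit mt-Co1 was at 49.6 and 24.9 in tissue, 6.57, 14.8 and 12.3 in the late samples and 10.8 and 6.85 in the early ones (log2 difference -1.75, SE 0.54, limma adjusted p = 0.0367) and was not past the threshold without tissue 1 (-1.26) or early 2 (-1.63), and 51.1% of its 50-base stretches have copies elsewhere. The NADH dehydrogenase gene mt-Nd6 was also lower (-0.71 (adjusted p = 0.00737)). The genes mt-Cytb and mt-Nd4 overlapped between the groups.

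Structural lists split. Of 14 tested keratin and junction genes 1 was higher and 2 lower. Cdh16, a cadherin typical of thyroid and kidney epithelium, was at 6.69 and 4.99 in tissue, 1.2, 1.32 and 1.56 in the late samples and 1.45 and 0.788 in the early ones (log2 difference -1.59, SE 0.27, limma adjusted p = 0.00292). Keratin 7 (Krt7) was lower (log2 difference -0.88, SE 0.18, limma adjusted p = 0.00639) and the splicing factor Esrp1 higher (log2 difference 0.77, SE 0.21, limma adjusted p = 0.0216), the latter not past the threshold without tissue 1 (0.43). Epcam, Krt8 and Krt18 overlapped between the groups. Of 10 tested genes often linked to epithelial progenitors 3 were higher and 1 lower. The surface protein Cd24a was at 7.08 and 10.8 in tissue, 46.1, 42.7 and 40.2 in the late samples and 39.7 and 28.5 in the early ones (log2 difference 2.03, SE 0.45, limma adjusted p = 0.0104), and the transcription factor Sox9 was at 2.01 and 1.96 in tissue, 11.2, 7.94 and 7.82 in the late samples and 6.67 and 9.77 in the early ones (log2 difference 1.68, SE 0.38, limma adjusted p = 0.0105). Anxa1 rose (log2 difference 1.54, SE 0.31, limma adjusted p = 0.00612) and its relative Anxa3 fell (log2 difference -0.60, SE 0.14, limma adjusted p = 0.0137).

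In basement membrane and integrin genes 3 of 17 tested were higher and 5 lower. The collagen IV chains went in different directions. Col4a6 was at 0.923 and 1.11 in tissue, 4.46, 4.02 and 3.29 in the late samples and 3.73 and 2.7 in the early ones (log2 difference 1.19, SE 0.29, limma adjusted p = 0.0146), while Col4a2 was at 2.46 and 3.07 in tissue, 0.742, 0.653 and 0.358 in the late samples and 0.649 and 0.322 in the early ones (log2 difference -1.29, SE 0.22, limma adjusted p = 0.00265). Col4a1 and Col4a4 were lower as well (log2 differences -0.97 (adjusted p = 0.0083) and -0.95 (adjusted p = 0.029)), as were the laminin genes Lamb1 and Lamb3 (-0.55 (adjusted p = 0.0338) and -0.88 (adjusted p = 0.00883)). Col4a1 and Col4a2 were at 15.6 and 11.7 in the other tissue cells, above their levels in the tissue follicular cells, and the endothelial marker total moved the same way between the groups; their part was not tested. The laminin receptor subunit Itga3 and the proteoglycan Sdc4 were higher (1.02 (adjusted p = 0.0307) and 0.91 (adjusted p = 0.0439)), Sdc4 not past the threshold without late 3 (0.83). Of 22 alternative settings Itga3 and Col4a4 each did not pass in 7 and Sdc4 in 9.

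Ion transport genes were 3 higher and 2 lower of 14 tested. Atp1b1, a beta subunit of an ion pump, was at 9.52 and 8.51 in tissue, 25.1, 28.5 and 27.6 in the late samples and 24.4 and 20.2 in the early ones (log2 difference 1.38, SE 0.43, limma adjusted p = 0.0368). It was not past the threshold without late 3 (1.34), nor in 9 of 22 alternative settings. All 5 TFCO samples lay above both tissue samples. Carbonic anhydrase 2 (Car2) rose 8.6-fold (log2 difference 1.60, SE 0.26, limma adjusted p = 0.00222). The potassium channel Kcnj15 rose (0.81 (adjusted p = 0.0263)) and its relative Kcnj16 fell (-1.23 (adjusted p = 0.000684)). Kcnj15 did not pass in 8 of 22 alternative settings.

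Class II antigen presentation had the lowest list median, -2.44. All 4 tested class II genes were lower, against 6.23% of all tested genes, and all 4 were under 0.5 in TFCOs and so passed the filter through the tissue level. The invariant chain Cd74 was at 6.55 and 3.77 in tissue, 0.0395, 0.0189 and 0.0309 in the late samples and 0.0234 and 0.0733 in the early ones (log2 difference -2.53, SE 0.18, limma adjusted p = 3.94e-06). The chain gene H2-Eb1 was at 4.09 and 4.83 in tissue, 0.0205, 0.00228 and 0 in the late samples and 0.00793 and 0.00698 in the early ones (log2 difference -2.44, SE 0.15, limma adjusted p = 2.17e-06) and H2-Aa at 3.92 and 3.16 in tissue, 0.0549, 0.0131 and 0.00399 in the late samples and 0.00478 and 0.0829 in the early ones (log2 difference -2.13, SE 0.15, limma adjusted p = 3.94e-06), with H2-Ab1 likewise lower (-1.58 (adjusted p = 1.79e-05)). In TFCOs the class II genes were near 0. The other tissue cells had mean levels of 23.9, 14.6 and 17.5 for the first 3 genes, above the tissue follicular cells. H2-Eb1 UMIs were in 55.6% of tissue follicular cells and 68.9% of other tissue cells, with no more than 5 in any follicular cell, and the 4 immune markers outside the rule summed to 0.911 and 0.648 in the tissue set and to at most 0.0726 in TFCOs. The part of RNA from other cells in this result was not tested. Of 6 tested class I and interferon genes 1 was lower, the peptide transporter Tap2 (log2 difference -0.86, SE 0.15, limma adjusted p = 0.0032), while B2m, H2-K1 and H2-D1 did not pass. Cp, the copper carrier ceruloplasmin, was the 1 of 2 tested complement and acute phase genes that rose (log2 difference 1.39, SE 0.37, limma adjusted p = 0.0202).

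**Figure D5:**
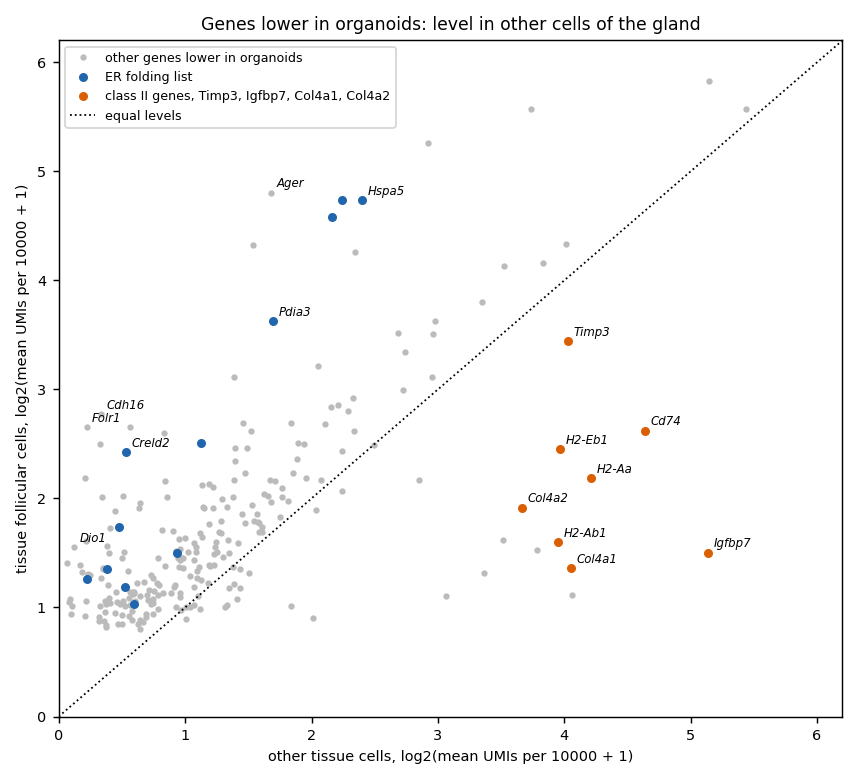
The 257 genes lower in TFCOs are placed by their level in tissue follicular cells (vertical) and in the 408 other tissue cells (horizontal), both as log2(mean UMIs per 10000 + 1), with a dotted line of equal levels. The ER folding genes (blue) lie above the line, and the class II genes, Timp3, Igfbp7, Col4a1 and Col4a2 (orange) lie below it.

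Of the 257 genes lower in TFCOs 32 had a level in other tissue cells at or above that in tissue follicular cells, as had 481 of the 610 higher genes. Among all 4122 tested genes the number was 2125 (51.6%). Both counts are shaped by the selection of genes on the same tissue follicular level. In the stress lists 2 of 6 and 2 of 7 tested genes were higher, where 14.8% of all tested genes were. Of 6 tested immediate early genes Egr1 and Btg1 were higher (log2 differences 1.48 (adjusted p = 0.00406) and 0.75 (adjusted p = 0.0146)), and Fos and Jund did not pass. Egr1 and Btg1 were under 0.5 in tissue and so passed the filter through the TFCO level. Of 7 tested heat shock genes the mitochondrial chaperonin Hspe1 and the cochaperone Dnaja1 were higher (0.80 (adjusted p = 0.0185) and 0.66 (adjusted p = 0.0368)). Both were under 0.5 in tissue and so passed the filter through the TFCO level. Dnaja1 was at 0.49 without tissue 1 and did not pass in 12 of the 21 alternative settings that tested it. Hspa8, the constitutive chaperone of the cytosol, lay below tissue in all 5 TFCO samples and did not pass (-0.67).

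Outside the lists, the 10 largest rises with a level of at least 2 were in Gm49980, Kctd12, Sod3, Slc1a1, Slc14a2, Sfta3-ps, Alk, Dbi, Alcam and Paics. Kctd12, a potassium channel tetramerisation domain protein, was at 0.113 and 0.269 in tissue, 24.2, 12.4 and 12.2 in the late samples and 12.9 and 12.8 in the early ones (log2 difference 3.69, SE 0.44, limma adjusted p = 0.000269), and 62.8% of its exons overlap Gm26778 on the other strand. Extracellular superoxide dismutase (Sod3) was at 1.4 and 0.658 in tissue, 17.4, 13.5 and 22.1 in the late samples and 9.58 and 11.7 in the early ones (log2 difference 2.94, SE 0.48, limma adjusted p = 0.00248). The unnamed transcript Gm49980 had the largest rise, at 0.426 and 0.543 in tissue, 9.04, 53.7 and 25.4 in the late samples and 57 and 18 in the early ones (log2 difference 4.22, SE 0.85, limma adjusted p = 0.00663). Membrane proteins made up several of the others. The glutamate carrier Slc1a1 rose 18.9-fold, the urea carrier Slc14a2 10.7-fold, the adhesion protein Alcam 8.56-fold and the receptor kinase Alk 12.6-fold as ratios of mean levels (adjusted p = 0.000623, 0.00377, 0.00919 and 0.0155). Dbi, which binds acyl-CoA, Paics, a purine synthesis enzyme, and the pseudogene Sfta3-ps rose by 2.34, 2.29 and 2.40 on the log2 scale.

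The 10 largest falls outside the lists included 2 surface receptors. Ager, a receptor for glycated proteins, was at 34.1 and 19.7 in tissue, 4.22, 1.65 and 4.95 in the late samples and 1.27 and 5.29 in the early ones (log2 difference -2.71, SE 0.60, limma adjusted p = 0.0102), and Folr1, a folate receptor, was at 5.84 and 4.72 in tissue, 0.149, 0.065 and 0.2 in the late samples and 0.043 and 0.102 in the early ones (log2 difference -2.49, SE 0.17, limma adjusted p = 3.94e-06). They were at 2.2 and 0.165 in the other tissue cells. The others were Ttc28, Gm43824, Cmss1, Cdh23, Mill2, Acacb, 4930589L23Rik and Gm50306, with log2 differences from -3.58 to -2.15. For some of these the other tissue cells had levels of the same order, with Ttc28 at 55.6 in tissue follicular and 34.3 in other tissue cells and Cdh23 at 46.5 and 42.4. Cmss1 was not past the threshold without late 3 (-2.76), nor in 8 of 22 alternative settings.

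Cells of different TFCO samples that carry the same well barcode were correlated, gene by gene, after each sample's mean was taken away. In all 1474 of the 4122 tested genes and 193 of the 867 called genes had a correlation above 0.05. Among genes named above, the highest values were in Cdh23 (0.576), Aldh1a2 (0.47), Col4a4 (0.413), Gm50306 (0.395), Tap2 (0.242), Kcnj16 (0.209), Esrp1 (0.188), Ttc28 (0.137) and Gm43824 (0.114). Values between 0.05 and 0.08 were found for Tshr, Ccn2, Aldh1a1, Mt1, Cpd, Chga, Anxa1, Sdc4, H2-Aa, Slc1a1, Uqcr11, Mill2, Acacb and 4930589L23Rik. Sequence overlap adds to this for some genes. At least 10% of the exons of Ctnnb1, Ccn2, Hmgcs1, Hsp90b1, Napsa, Atp1b1, Tap2, Rpl5 and Slc1a1 overlap a gene on the other strand, and at least 10% of the 50-base stretches of Etv5, Me1, Cd63, Hspe1 and Dnaja1 occur in other genes, so their levels are uncertain. Gm49980, Gm50306 and Atp5pb were not found by name in the gene annotation used, so their overlap with other genes was not checked. Of 383 well barcodes among the cells used, 377 occur in more than 1 sample.

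Passage was then compared among the TFCOs. With limma, 1 of 4122 genes (0.0243%) differed between late and early samples, the pseudogene Rpsa-ps10, which is in no list, and 887 genes had an unadjusted p under 0.05. No tested member of a list passed. Without early 1 the count was 292 and without late 2 it was 2. List medians relative to all tested genes also varied among the TFCO samples. The ribosomal list median was 0.66, 0.31 and 0.49 for late 1 to 3, against 0.01 and -0.23 for the early samples, and the complement and acute phase median was -0.36 and -0.31 in late 2 and early 1 against 0.50, 0.91 and 0.56 in late 1, late 3 and early 2. The ER folding median differed by less, at -0.77, -0.83, -0.72, -0.88 and -0.97.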

How the data were processed

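Single cells were profiled by SORT-seq, a plate-based CEL-seq2 protocol with UMIs. Per the labels and the submitters' processing notes, reads were trimmed (Trim Galore 0.4.3), aligned (STAR 2.5.3a; GRCm38, mm10) and handled in Seurat; the gene annotation and the use of strand in counting are not given in the sources used here. The deposited table (30879 genes, 2590 cells) holds what the authors computed as the natural log of 1 plus UMIs scaled to 10000 per cell. From these values the UMIs were recovered, with 100% of values above 0 whole within 0.01, and UMIs per 10000 were averaged over the cells of each sample. All columns were assigned to samples by name.

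Genes at 0.5 or more in the mean of the 2 group means were tested on log2(level + 1) with limma 3.58.1 (R 4.3.3), with a trend and 1 weight per material (0.472 tissue, 1.35 TFCO), 2 tissue against 5 TFCO samples, and Benjamini-Hochberg adjustment over all 4122 tested genes with a threshold of 0.05. On this scale a fold change of a low gene is understated. Late and early TFCOs were compared in a fit of 3 groups. In simulated cells 88 of 90 genes changed by log2 2 were recovered, 25 of 68 changed by log2 1, and 6 of 4072 unchanged genes were called. These rates hold only for the cell depth and sample noise assumed in the simulation. Whether they hold at the lower depth of the tissue follicular cells, or with RNA from other cells present, was not tested. They are therefore not error rates of the calls above. Tg and the 15 markers of the cell rule were not tested. Median depth was 1616 to 1973 UMIs per cell in tissue and 5011 to 12381 in TFCOs; counting intervals and floors (3 counts) cover counting error only. No doublet removal was applied beyond the marker limits.

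The cells, lists and tests were chosen with earlier results of these data known. Named genes are, per list, up to 3 past the threshold with the largest difference in each direction (the 2 highest where none passed), and the 10 largest rises and 10 largest falls outside the lists with a level of at least 2. Every other gene given with a value was chosen after its values were seen, as was the ER stress element. Exon overlap and shared 50-base stretches come from GENCODE vM21 and promoters from RefSeq (GRCm38.p6). Alternatives covered pseudocounts, filters, weights, summed UMIs, scaling, depth, cell limits and left-out samples. Listed genes that are missing from the table, such as Igf2, Fdps and Scgb3a1, were not analysed here, and values of some list members are not reported here.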

Additional observations from a re-analysis of the deposited data

Results flagged for a closer look

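In 10 of the 109 named genes, 1 of the 5 TFCO samples stood apart from the other 4, with a gap to its nearest neighbour above 0.71 of the whole range; chance flags about 1 in 20 groups. Late 1 was the sample in 6 of them. It was highest for the homeobox gene Hhex (3.79), the EGF receptor inhibitor Errfi1 (2.90), megalin (Lrp2, 3.85), Kctd12 (24.2) and the pseudogene Sfta3-ps (13.1), and lowest for the peptide transporter Tap2 (0.190). Early 2 was lowest for malic enzyme Me1 (1.58) and highest for Cdh23 (14.3). Late 3 was highest for annexin Anxa1 (4.82) and late 2 for Cmss1 (21.0). All values are UMIs per 10000.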

How the results depend on the processing

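The 867 genes called between TFCOs and tissue became 420 with cells of 2000 or more UMIs, 449 with marker limits of 0.25, 513 with voom on summed UMIs and 1610 with equal weights. Leaving out 1 sample gave 751 to 1545 genes, with 1545 without tissue 1 and 1433 without tissue 2; the lone tissue sample was then assumed to vary like the others and weights were equal. Between late and early TFCOs leaving out 1 sample gave 1 to 292 genes against 1, with 292 without early 1 and 2 without late 2. The cause of these shifts was not tested. The share of higher genes was 70.4% and fell to 45.8% when samples were centred on the median gene (318 higher, 376 lower), with 385 higher and 295 lower when Tg was left out of the totals. Of 3043 comparisons of a called named gene with an alternative, 2742 kept direction and side of the threshold, 301 kept the direction only and 0 reversed; 55 of 107 named genes passed in all. Named genes given above without a note on settings did not all pass in every setting. Over 22 alternatives, ER folding genes called lower numbered 6 to 14 and class II genes 4. Genes called higher numbered 2 to 7 for Wnt, 0 to 6 for EGF and FGF, 1 to 4 for TGF-beta and BMP, 2 to 11 for sterol synthesis, 0 to 7 for NRF2, 1 to 4 for metallothioneins and zinc, 1 to 5 for the lysosome, 0 to 15 for ribosomal proteins and 1 to 11 for nuclear oxidative phosphorylation. Medians of 17 lists kept their sign and those of 15 did not. No paired analysis was possible because the labels tie no tissue sample to a TFCO sample and the replicate numbers only name samples. The tissue values rest on 90 cells.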
